A study of Saccharomyces cerevisiae with 36 samples.

Results

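XUTs opposite weakly expressed genes are 659 of the 1798 Xrn1-sensitive unstable transcripts (XUTs) annotated in the budding yeast Saccharomyces cerevisiae, or 36.7%. They were chosen by 2 criteria. The XUT shares 200 nt or more with an annotated gene that runs in the opposite direction, and that gene (the one with the longest shared stretch) had a mean read density below 0.256, the median over all 5798 genes, in the 2 S288C wild-type libraries of the xrn1 comparison. Read density is the deposited value, reads per nt scaled so that small nucleolar RNAs (snoRNAs) carry the same total signal in every library. Another 346 XUTs lie opposite genes at or above that median, and 793 have less than 200 nt of gene opposite them. The selection thus used annotated positions and the wild-type S288C level of the gene, and XUTs themselves are named for their rise in cells without Xrn1.

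The study sequenced strand-specific total RNA from 2 biological replicates per group, to follow how long noncoding RNAs depend on the cytoplasmic decay enzymes, on nonsense-mediated decay and on base pairing with the opposite strand. The mutant groups were upf1Δ (written upf1D in the labels, strain YAM202), dcp2-7 at 37 °C (YAM2283), and xrn1Δ in S288C (YAM6), W303 (YAM97), haploid SK1 (YAM2087) and diploid SK1 (xrn1D/xrn1D, YAM2068), each set against its own wild type (YAM1 for all S288C comparisons, YAM92 for W303, YAM1977 and YAM2067 for haploid and diploid SK1). RNA of xrn1Δ and dcp2-7 cells and of their wild types was also treated with Terminator exonuclease, and capped 5′ ends were mapped by CAGE, a cap-selecting method, in dcp2-7 and wild-type cells grown in YPD and held for 2 h at 37 °C. Each mutant is 1 strain, and dcp2-7 is a conditional allele, so its RNA level is no check of the label. In these bulk cultures, more cells with an RNA and more RNA per cell cannot be told apart.

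Xrn1 is the cytoplasmic exonuclease that degrades RNA in the 5′ to 3′ direction once the cap is gone, and Dcp2 is the catalytic subunit of the enzyme that removes the cap. Upf1 is the RNA helicase at the centre of nonsense-mediated decay, which acts on RNAs whose translation ends far from the 3′ end and leads them to decapping. Terminator digests RNA with a 5′ monophosphate, the end left by decapping, and spares capped RNA.

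The 659 XUTs lay on both strands in near equal number, 333 on the plus and 326 on the minus strand. Their length ran from 200 to 5923 nt with a median of 841 nt, and the median overlap with the gene was 634 nt, or 90.0% of the XUT. By position, 235 lay inside the gene, 175 covered its 5′ end, 112 covered its 3′ end and 137 covered the whole gene. They faced 585 distinct genes, since 61 genes had more than 1 member opposite (up to 5), and the 135 members that share a gene are not independent of each other. On their own strand none overlapped an annotated gene, while 300 overlapped another annotated noncoding transcript there, whose reads cannot be separated from theirs. The genes opposite had a median density of 0.0896 in wild-type S288C cells, and 3 of them were at 0. The members nearest below the threshold were XUT0836 (opposite FSH3, 0.256), XUT0478 (RPI1, 0.254) and XUT0670 (YLR361C-A, 0.254). Just above it lay XUT1041 (SNA4, 0.257), XUT0871 (AIM44, 0.259) and XUT0881 (INA17, 0.261). The 3 inside changed by 0.48, 1.31 and 2.20 on the log2 scale in upf1Δ cells, and the 3 outside by 1.20, 2.28 and 1.56.

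Short reading frames near the 5′ end were found in nearly all members, as in the other XUTs. Of the 658 members on nuclear chromosomes, 649 had an ATG followed by a stop codon in the same frame, counting from the annotated 5′ end. The first ATG lay at a median of 35 nt, its frame held a median of 13 codons before the stop, and 647 of the 658 (98.3%) had a first frame of under 100 codons. A median of 736 nt, or 89.1% of the transcript, followed that stop. XUTs opposite well-expressed genes had the same median of 13 codons and a median of 602.5 nt after the stop, and the other XUTs 12 codons and 349 nt. A first frame of under 100 codons was found in 96.2% of XUTs opposite well-expressed genes and in 94.1% of the other XUTs. These frames were read from the genome sequence, and whether they are translated was not measured. No background of other or shuffled sequence was counted, so the frames are a description and not a trait particular to the members.

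The 6 frames below belong to members that the results return to, opposite genes for membrane transport (GEX2, GAL2, DAL4), meiosis (SPO11, NDT80) and the mitotic spindle (ASE1). Each is written 5′ to 3′ on the XUT's own strand from the RefSeq sequence of build R64, capitals mark the first frame from its ATG through its stop codon, and 6 nt on either side are in lower case. All 6 stretches lie inside the coding region of the gene opposite, so they are also the reverse complement of part of that gene's coding strand.
XUT1467, opposite GEX2, chr11:662143-662409, minus strand: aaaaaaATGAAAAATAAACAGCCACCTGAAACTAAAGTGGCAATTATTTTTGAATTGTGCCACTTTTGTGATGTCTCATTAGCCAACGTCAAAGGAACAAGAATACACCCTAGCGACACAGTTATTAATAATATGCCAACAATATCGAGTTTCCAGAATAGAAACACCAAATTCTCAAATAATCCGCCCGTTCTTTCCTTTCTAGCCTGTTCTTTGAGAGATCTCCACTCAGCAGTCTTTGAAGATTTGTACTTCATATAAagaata
XUT1479, opposite GAL2, chr12:291540-291704, minus strand: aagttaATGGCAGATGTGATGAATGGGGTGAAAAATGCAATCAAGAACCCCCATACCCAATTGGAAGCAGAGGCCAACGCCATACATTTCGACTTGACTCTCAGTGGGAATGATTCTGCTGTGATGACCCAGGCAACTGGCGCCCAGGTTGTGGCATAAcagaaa
XUT0418, opposite SPO11, chr8:63034-63129, plus strand: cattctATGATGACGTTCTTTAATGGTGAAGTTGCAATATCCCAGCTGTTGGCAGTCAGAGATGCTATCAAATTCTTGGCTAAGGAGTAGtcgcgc
XUT1304, opposite NDT80, chr8:358239-358277, minus strand: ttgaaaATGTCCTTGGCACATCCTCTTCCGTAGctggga
XUT1352, opposite DAL4, chr9:409660-409752, minus strand: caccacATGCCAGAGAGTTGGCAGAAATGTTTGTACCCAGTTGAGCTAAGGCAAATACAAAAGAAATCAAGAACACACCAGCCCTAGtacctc
XUT0816, opposite ASE1, chr15:435930-436016, plus strand: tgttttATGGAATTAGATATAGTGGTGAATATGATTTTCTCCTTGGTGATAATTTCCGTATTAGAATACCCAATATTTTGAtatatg
The frames held 84 codons in XUT1467, 50 in XUT1479, 27 in XUT0418, 8 in XUT1304, 26 in XUT1352 and 24 in XUT0816. After the stop there remained 722, 1497, 1141, 2035, 1261 and 637 nt in the same order.

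The deletions read as labelled. XRN1 density was at most 0.00399 in the 8 xrn1Δ libraries, against at least 0.334 in the 8 matching wild-type libraries, and the UPF1 gene (NAM7) was at 0.000869 and 0.00151 in upf1Δ libraries, against 0.589 and 0.581 in their wild type. Libraries held 11021562 to 68466587 reads on annotated features in rRNA-depleted RNA and 13208233 to 23350952 in Terminator-treated RNA. The snoRNA scale lets the level of all RNA move, and most features were higher in every mutant on it. For that reason the count of members called in each comparison stands beside the share of all features called, on this scale and after the libraries were rescaled to equal mRNA medians, which sets the typical mRNA change to 0. Counts within subsets and lists are on the snoRNA scale only. Tests were limma's moderated tests on log2(density + 0.00577), with p-values adjusted over all 9712 features tested by the Benjamini-Hochberg method, and calls were made at an adjusted p under 0.05. The added constant makes fold changes of weakly expressed features too small. All 659 members passed the filter on low values.

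The members rose in cells without Upf1 more often and by more than the average feature. Their median density was 0.0514 and 0.0473 in the upf1Δ libraries, against 0.0135 and 0.0138 in the wild-type libraries, and both upf1Δ medians lay above both wild-type medians. By limma, 560 of the 659 (85.0%) rose and 1 fell, where 54.3% of all features rose and 1.26% fell. The median change of the members was 1.49 on the log2 scale, beside 0.46 over all features, and 469 of them rose at least 2-fold, where 29.7% of all features did. After rescaling to mRNA medians, 492 (74.7%) rose and 28 fell, where 33.7% of all features rose and 37.2% fell, and the median was 1.15 beside −0.09 over all features. Among XUTs opposite well-expressed genes 282 of 346 rose, with a median of 1.26, and among the other XUTs 636 of 793 did, with a median of 1.10. The difference between these groups of XUTs was not tested.

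**Figure D1:**
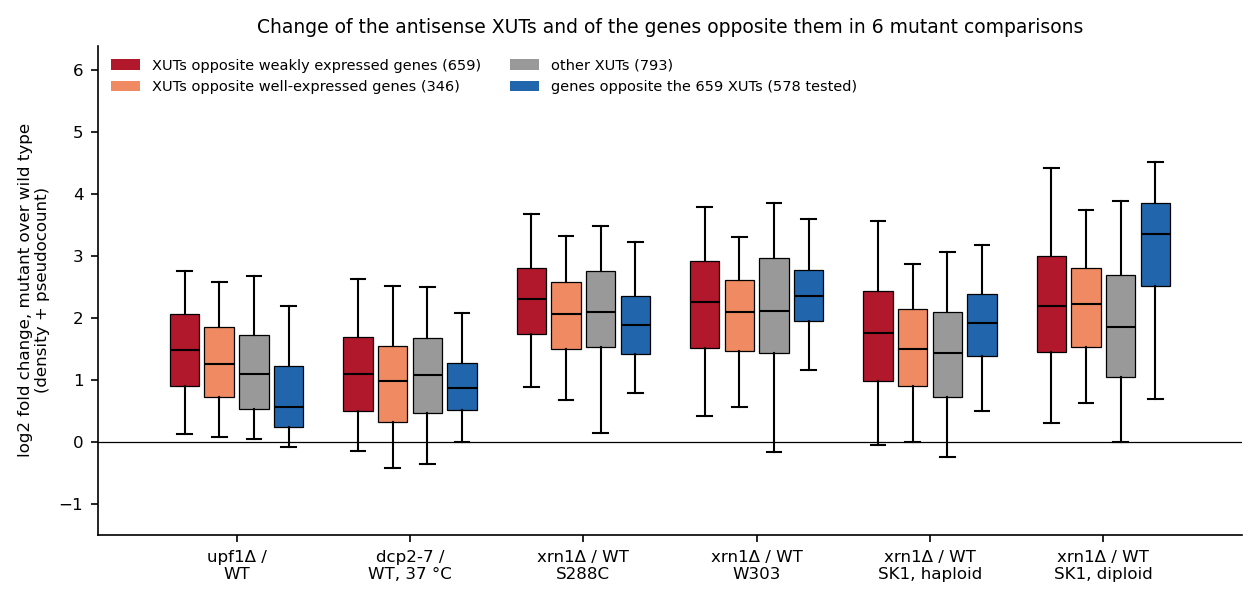
Log2 fold changes (y axis) of the 659 XUTs opposite weakly expressed genes, of the other XUTs and of the genes opposite the 659, in 6 comparisons of a mutant over its wild type (x axis). Boxes span the quartiles with the median as a line and whiskers run between the 5th and 95th percentiles of features; in upf1Δ the 659 XUTs have a median of 1.49 and the genes opposite them 0.57, while in the diploid SK1 comparison the genes, at 3.36, lie above the XUTs, at 2.20.

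The members with the largest rises among the better covered ones lay opposite genes of varied function. XUT1467 lies opposite GEX2, which encodes a glutathione exchanger, and had a density of 0.168 and 0.167 in upf1Δ cells, against 0.00896 and 0.0106 in wild type, a log2 change of 3.48 ± 0.17 (SE; limma adjusted p = 1.1e-13). All 6 frames printed above belong to members whose upf1Δ libraries both exceeded both wild-type libraries. XUT1612, opposite YTP1, had 0.402 and 0.364 in upf1Δ cells, against 0.0302 and 0.0318 in wild type (3.40 ± 0.14, limma adjusted p = 7e-15). XUT1797 lies opposite MSS18, needed for splicing of a mitochondrial intron, and had 0.255 and 0.236 against 0.0187 and 0.0181 in wild type (3.38 ± 0.16). XUT0195, opposite UPS3 of the mitochondrial intermembrane space, had 0.342 and 0.331 in upf1Δ cells, against 0.03 and 0.0279 in wild type (3.30 ± 0.13).
That no upf1Δ library overlapped a wild-type library was a condition for naming these 4 members. Sugar and alcohol genes were also among those opposite. XUT1479, opposite the galactose permease gene GAL2, had 0.179 and 0.165 in upf1Δ cells, against 0.0122 and 0.0137 in wild type. XUT0741, opposite ADH2, the glucose-repressed alcohol dehydrogenase, had 0.516 and 0.5 in upf1Δ cells, against 0.05 and 0.0492 in wild type. The rise was 3.25 for XUT1479 and 3.21 for XUT0741 on the log2 scale. XUT0187, opposite MRX16, rose by 3.28. XUT1813 stood apart in level, with 10.9 and 9.71 in upf1Δ cells, against 1.23 and 0.815 in wild type (3.35 ± 0.16). It lies opposite R0010W on the 2-micron plasmid, whose copies per cell were not measured.

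**Figure D2:**
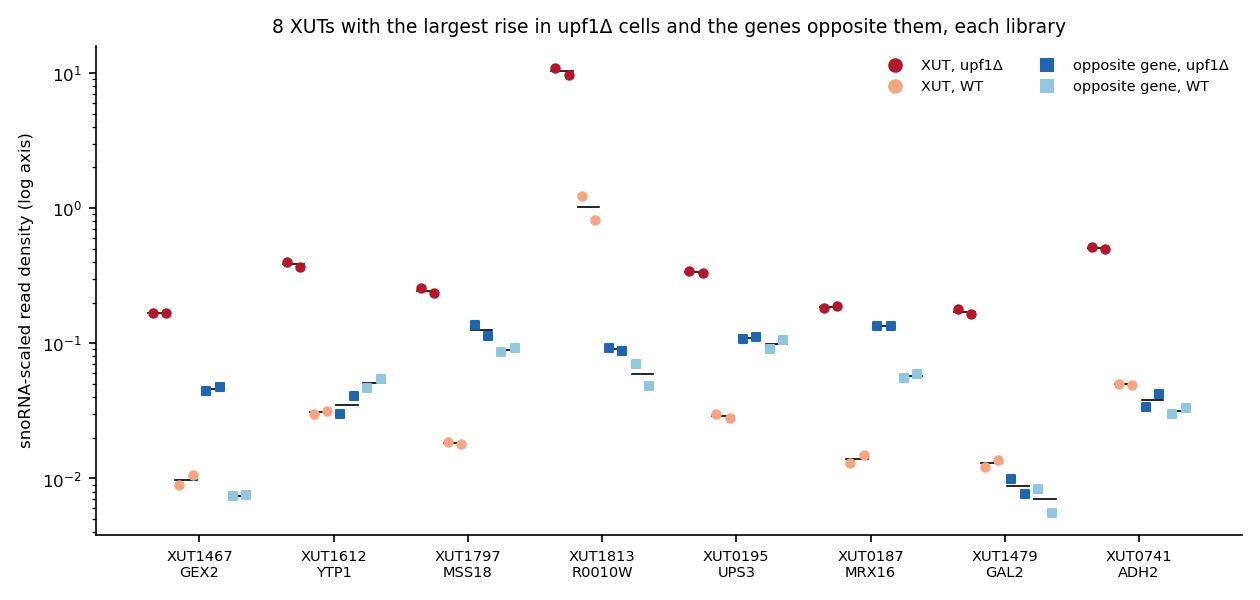
snoRNA-scaled read density (log axis) of the 8 XUTs with the largest rises in upf1Δ cells that met the level and overlap criteria, and of the gene opposite each, 1 point per library with the group mean as a line. Each XUT is higher in both upf1Δ libraries than in both wild-type libraries, which the overlap criterion required. The genes opposite range between a log2 change of 1.96 (GEX2) and −0.47 (YTP1).

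The strand opposite these XUTs moved much less. GEX2 itself had 0.044 and 0.0478 in upf1Δ cells, against 0.00736 and 0.0076 in wild type (1.96, limma adjusted p = 7.2e-09). GAL2 had 0.00991 and 0.00766 in upf1Δ cells, against 0.00841 and 0.00557 in wild type, groups that overlap (0.19, limma adjusted p = 0.45). ADH2 had 0.0339 and 0.0418 in upf1Δ cells, against 0.0301 and 0.0331 in wild type (0.22, limma adjusted p = 0.46). YTP1 was not called on the snoRNA scale (−0.47, limma adjusted p = 0.11), although both upf1Δ libraries, at 0.0298 and 0.0405, lay below both wild-type libraries, at 0.0468 and 0.0547. Rescaled to mRNA medians, the YTP1 change was −1.09, beside a median of −0.28 over all genes. Per nt, a XUT exceeded its gene in both upf1Δ libraries in 212 cases (32.2%), against 145 (22.0%) in both wild-type libraries. The median log2 ratio of XUT to gene was −1.05 in each upf1Δ library, against −1.98 and −2.04 in wild type.

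Over all 578 opposite genes that could be tested, 368 (63.7%) rose in upf1Δ cells and 4 fell, where 47% of all genes rose and 0.521% fell. Their median change was 0.57, beside 0.32 over all genes. After rescaling, 234 (40.6%) rose and 165 (28.6%) fell, where 22.5% of all genes rose and 53.1% fell. The median was then 0.03, beside −0.28 over all genes. Among XUT and gene pairs, both partners rose in 357, the XUT rose and the gene was not called in 199, and the XUT rose while the gene fell in 4. The 4 distinct genes that fell were RSB1 (−0.70), which encodes a sphingoid base transporter, RPI1 (−0.62), YER079W (−0.50) and CLD1 (−0.40). At the other end, ULI1 had 0.417 and 0.381 in upf1Δ cells, against 0.026 and 0.0268 in wild type (3.65 ± 0.17). FLR1, a drug efflux transporter gene, had 0.972 and 0.918 in upf1Δ cells, against 0.0991 and 0.0986 in wild type, a change of 3.18. BSC5 rose by 3.46 and URA10, an orotate phosphoribosyltransferase gene, by 3.35.

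In upf1Δ cells the genes opposite had similar changes whether their XUT rose by little or by much. When the pairs were ordered by the XUT's change in upf1Δ cells and cut into quartiles, the median XUT change was 0.43, 1.21, 1.73 and 2.44, while the median change of the genes opposite was 0.62, 0.56, 0.59 and 0.53. The gene rose in 97 to 110 pairs of each quartile, which held 161 or 162 pairs, and fell in at most 2, with a gene counted once for each XUT opposite it. In dcp2-7, with the pairs ordered by the XUT's change in dcp2-7 (medians 0.18, 0.80, 1.36 and 2.13), the gene medians were 0.98, 0.93, 0.83 and 0.76, lower where the XUT rose more.

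Longer members changed more. In quartiles of length (200 to 414, 417 to 841, 844 to 1419 and 1420 to 5923 nt) the median upf1Δ change was 1.03, 1.24, 1.58 and 1.98. The number that rose was 114 of 165, 137 of 165, 150 of 164 and 159 of 165. Wild-type density also differed along this order, with medians of 0.0123, 0.0107, 0.0130 and 0.0242, and longer features collect more reads, and the part of either in the order was not tested. The same order stood after rescaling to mRNA medians (0.62, 0.85, 1.24 and 1.58), and in the W303 xrn1Δ comparison (1.78, 2.10, 2.30 and 2.83) and in dcp2-7 (0.72, 1.08, 1.23 and 1.37). In quartiles of the nt after the first stop codon the upf1Δ medians were 1.06, 1.24, 1.58 and 1.98, but the median lengths were 321, 624, 1099 and 2064 nt, so the distance after the stop and the length cannot be told apart here.

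By position, the members that covered the whole gene rose in 132 of 137 cases, with a median of 1.94. Those over the gene's 5′ end rose in 159 of 175 (median 1.59), those over its 3′ end in 91 of 112 (1.31) and those inside the gene in 178 of 235 (1.16). Length was not held equal across these positions, and its part in this order was not tested. In quartiles of the opposite gene's density in the wild type of this comparison, lowest to highest, the median XUT change was 1.80, 1.55, 1.34 and 1.34, and the median XUT length was 1132, 860, 777.5 and 658 nt. Length therefore moves with the gene's level in these quartiles, and its part was not tested. Members with another noncoding transcript on their strand rose in 257 of 300 cases (median 1.60) and 84.4% of the 359 without did (1.38).

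**Figure D3:**
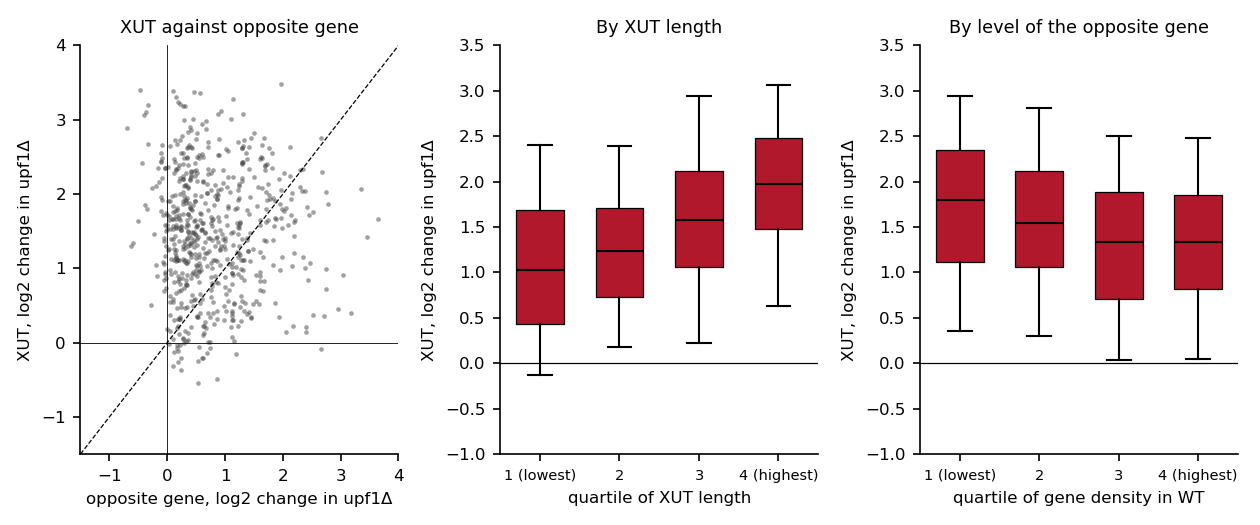
Left, log2 change in upf1Δ over wild type of each XUT (y axis) against that of the gene opposite (x axis), with a dashed line where both are equal. Middle and right, the XUT change in quartiles of XUT length and of the opposite gene's wild-type density (boxes, quartiles; whiskers, 5th to 95th percentile); the medians climb to 1.98 in the longest quartile and are 1.80 in the quartile with the lowest gene density.

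The 99 members that did not rise in upf1Δ cells were shorter. Their median length was 407 nt, beside 912 nt for the 560 that rose, and they had a median of 44.5 reads per wild-type library, beside 74. Per nt, their wild-type density was the higher one, with a median of 0.0186, beside 0.0130 for the 560. Of the 560 that rose in upf1Δ, 551 also rose in W303 xrn1Δ cells and 458 in dcp2-7. Of the other 99, 70 rose in W303 xrn1Δ cells and 40 in dcp2-7. Among all features 91.3% rose in W303 xrn1Δ cells and 72.4% in dcp2-7. The single member that fell was XUT1420, opposite LOT5, with 0.0332 and 0.0253 in upf1Δ cells, against 0.0481 and 0.0417 in wild type (−0.54 ± 0.18, limma adjusted p = 0.0137), and it also fell in W303 xrn1Δ cells (−0.59).

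In decapping-deficient dcp2-7 cells at 37 °C the share of members that rose lay near that of all features on the snoRNA scale and above it after rescaling. Their median density was 0.0557 and 0.0472 in dcp2-7, against 0.0196 and 0.0236 in wild type at 37 °C. By limma, 498 (75.6%) rose and 12 fell, where 72.4% of all features rose and 4.12% fell. The median change was 1.09, beside 0.73 over all features. After rescaling, 310 (47.0%) rose and 72 (10.9%) fell, where 28.5% of all features rose and 33.6% fell, and the median was 0.41 beside −0.06. The 2 other groups of XUTs had medians of 0.98 (opposite well-expressed genes) and 1.08.

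Among members that met the level and overlap criteria, the 5 with the largest rises in dcp2-7 are given here. XUT0678, opposite ECM30, had 0.329 and 0.289 in dcp2-7, against 0.0148 and 0.0191 in wild type (3.80 ± 0.18, limma adjusted p = 2e-13). XUT0439 lies opposite GIC1, which encodes an effector of the polarity GTPase Cdc42, and had 0.402 and 0.33 in dcp2-7, against 0.0186 and 0.0263 in wild type (3.73), while GIC1 itself was not called (−0.17, limma adjusted p = 0.22). XUT0816, opposite the spindle midzone gene ASE1, had 0.322 and 0.258 in dcp2-7, against 0.0164 and 0.018 in wild type (3.68).
These 3 XUTs were higher in every dcp2-7 library than in any wild-type library at 37 °C, which was a condition for naming them. XUT1380 (opposite IRC18) rose by 3.34 and XUT0537, opposite the tRNA deaminase gene TAD2, by 3.33. Among the 12 that fell, XUT1126 lies opposite GLC3, the glycogen branching enzyme, and had 0.0131 and 0.00897 in dcp2-7, against 0.027 and 0.0359 in wild type (−1.15 ± 0.18, limma adjusted p = 5.4e-06). GLC3 had 0.228 and 0.213 in dcp2-7, against 0.0556 and 0.0638 in wild type (1.79). XUT1422, opposite the kinase gene NNK1, fell by 1.02 on the log2 scale and NNK1 rose by 0.73, although NNK1 was at −0.09 after rescaling to mRNA medians. Both XUTs rose in upf1Δ cells, XUT1126 by 2.42 and XUT1422 by 1.78. A further glycogen gene, GLG1 (glycogenin), lies opposite XUT1454, another that fell (−0.96).

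The CAGE lists gave single positions of capped 5′ ends, pooled per genotype by the authors and without replicates, 10183 in dcp2-7 and 9340 in wild type. A position on the same strand within 50 nt of the annotated 5′ end was listed for 264 members (40.1%, 95% Wilson interval 36.4 to 43.8) in dcp2-7 and for 207 (31.4%, 28.0 to 35.1) in wild type. Both lists held a position for 182 members, only dcp2-7 for 82 and only wild type for 25. For XUTs opposite well-expressed genes the shares were 38.2% in dcp2-7 and 26.6% in wild type, and for the other XUTs 33.0% in dcp2-7 and 21.6% in wild type. The 370 members in neither list were the weakest, with a median density of 0.032 in dcp2-7 and 0.015 in wild type, beside 0.103 in dcp2-7 and 0.036 in wild type for those in both lists. Those listed in dcp2-7 only rose in 75 of 82 cases in the dcp2-7 RNA libraries (median 1.46). Those in neither list did in 253 of 370 (median 0.85), where 72.4% of all features rose (median 0.73). A position listed only in dcp2-7 favours RNAs with more signal there, so these counts are a description. The intervals cover counting error only, and a list with more positions overall finds more ends.

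Most members were higher in cells without Xrn1 in each strain background, as were most features. In W303, the median density was 0.085 and 0.0897 in xrn1Δ cells, against 0.0152 and 0.0142 in wild type. There 621 members (94.2%) rose and 3 fell by limma, where 91.3% of all features rose and 1.1% fell, and the median change was 2.26 beside 1.94. After rescaling 334 (50.7%) rose and 98 (14.9%) fell, where 32.5% of all features rose and 37.5% fell, and the median was 0.48 beside −0.06. In haploid SK1 the median density was 0.0733 and 0.0745 in xrn1Δ cells, against 0.0212 and 0.0188 in wild type. There 575 (87.3%) rose and 14 fell, where 82.5% of all features rose and 3.32% fell. The medians were 1.76 and 1.43, and after rescaling 290 (44.0%) rose and 151 (22.9%) fell, where 30.2% and 42.2% of all features did (median 0.31 beside −0.13). In diploid SK1 the median density was 0.0538 and 0.0499 in xrn1Δ/xrn1Δ cells, against 0.0066 and 0.0083 in wild type. There 616 (93.5%) rose and 9 fell, where 90.5% and 1.3% of all features did, and the members' median of 2.20 lay below the 2.68 of all features. After rescaling, 177 rose (26.9%) and 43.7% fell, where 25.9% and 51.8% of all features did (median −0.26 beside −0.39).

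In S288C, whose wild-type libraries chose the members, the values are a description only. The median density was 0.106 and 0.102 in xrn1Δ cells, against 0.0178 and 0.0171 in wild type, and 648 members passed as higher and 1 as lower, where 91.6% and 0.927% of all features did. The median change was 2.30 (1.68 over all features), and after rescaling 421 (63.9%) were higher and 31 (4.70%) lower, where 35.2% and 33.0% of all features were (0.73 beside 0.02). The change in upf1Δ cells was below that in xrn1Δ S288C cells for 404 members and above it for 27, where 70.8% and 2.12% of all features were. After rescaling the split turned, with 59 (8.95%) below and 199 (30.2%) above, where 18.1% and 31.0% of all features were, and the median difference was 0.29 in place of −0.81. Chromosome 11 held 45 members with a median xrn1Δ change of 3.00 in S288C, beside 2.26 for those on other chromosomes. In W303 the 2 medians were 2.37 and 2.25. The same split was not made for all features or genes. A shift of the whole chromosome in S288C therefore cannot be told apart from a shift of these XUTs.

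The rises of single members varied with the background. XUT0155, opposite the pheromone-regulated gene PRM7, had 0.467 and 0.59 in W303 xrn1Δ cells, against 0.00801 and 0.0032 in W303 wild type (5.58 ± 0.24). Only its W303 xrn1Δ libraries, with 155 and 177 reads, brought it past the level criterion, so this change is a description. Every other rRNA-depleted library held at most 27 reads of it. The change of XUT0155 was 2.08 in S288C, 0.87 in haploid SK1 and 0.88 in diploid SK1, and 0.20 in upf1Δ cells (limma adjusted p = 0.50). Its reads were few there, with 0 and 3 in wild-type S288C and at most 7 in any library of the SK1 and upf1Δ comparisons. The added constant makes fold changes at such levels too small. PRM7 itself had 0.141 and 0.134 in W303 xrn1Δ cells, against 0.283 and 0.238 in wild type (−0.89, limma adjusted p = 0.030), whereas its change was 2.19 in S288C.
The differences between backgrounds were not tested. XUT0311, opposite EPL1, a subunit gene of the NuA4 histone acetyltransferase, had 1.93 and 1.8 in diploid SK1 xrn1Δ/xrn1Δ cells, against 0.0339 and 0.0415 in wild type (5.43). XUT0202, opposite the catalase gene CTA1, had 1.29 and 1.44 in W303 xrn1Δ cells, against 0.0521 and 0.0617 in wild type (4.46), and its change was 5.20 in diploid SK1, 3.87 in haploid SK1 and 3.69 in S288C. That the xrn1Δ libraries lay above the wild-type libraries was a condition for naming these XUTs.

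Of the 578 opposite genes, 567 (98.1%) rose in W303 xrn1Δ cells and 3 fell, where 97.6% of all genes rose and 0.243% fell. The 3 were FRE4, which encodes a ferric reductase (−1.52), PRM7 (−0.89) and the sulphate permease gene SUL2 (−0.50). FRE4 had 0.113 and 0.105 in xrn1Δ cells, against 0.301 and 0.346 in wild type (limma adjusted p = 8.1e-09), while in S288C and both SK1 comparisons its change lay between 1.33 and 1.56 on the snoRNA scale and was negative after rescaling to mRNA medians (−0.29 in S288C, −0.15 in haploid and −1.97 in diploid SK1). After rescaling, 306 opposite genes (53.0%) rose and 85 (14.7%) fell in W303, where 30.3% and 43.4% of all genes did.

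Across the 6 comparisons, 428 members (64.9%) rose in all of them, where 43% of all features did. The count includes the S288C comparison whose wild type chose the members, so it is a description. Another 114 rose in 5, 63 in 4, 27 in 3, 20 in 2 and 7 in 1. The 3 xrn1Δ comparisons outside S288C raised 547 members in common and left 10 not called as higher in any. Singly, they raised 91.3% (W303), 82.5% (haploid SK1) and 90.5% (diploid SK1) of all features. In upf1Δ and dcp2-7, 458 rose in both, 102 in upf1Δ only, 40 in dcp2-7 only and 59 in neither. Singly, these mutants raised 54.3% and 72.4% of all features. The shares of all features in these overlaps were not counted, so the overlaps are a description.

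On the snoRNA scale, most members were lower in Terminator-treated than in untreated RNA from xrn1Δ cells, and few were in RNA from dcp2-7 cells. Whether the treatment changes the snoRNAs that set this scale was not measured. In each xrn1Δ library pair, the treated median density was 44.6% and 48.6% of the untreated one. In dcp2-7 it was 126% and 146%, in wild-type S288C 116% and 128%, and in wild type at 37 °C 122% and 129%. These tests used log2(density + 0.00841) in a separate model, in which 641 members passed the filter. By limma, 561 (87.5%) fell and 2 rose in xrn1Δ, where 83.2% of all features fell and 2.14% rose. In dcp2-7, 176 (27.5%) rose and 9 fell, where 22.1% of all features rose and 3.9% fell. In wild-type S288C 103 rose and 15 fell (13.7% and 11.6% of all features), and in wild type at 37 °C 95 rose and 1 fell (17.5% and 2.69%).

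The difference between the 2 responses was tested as an interaction, and 588 of 641 members (91.7%) responded higher in dcp2-7 than in xrn1Δ and none lower, where 87.6% and 0.166% of all features did. Its median was 1.41, beside 1.25 over all features. These counts depended on the scale. After rescaling to mRNA medians, 129 members (20.3%) rose and 126 (19.8%) fell with Terminator in xrn1Δ, where 35.96% and 23.4% of all features did. The members' median was then 0.013 in place of −1.03, beside 0.095 over all features. In dcp2-7, 171 (26.9%) rose and 15 (2.36%) fell after rescaling, where 26.4% and 14.6% of all features did. The interaction was then called higher for 125 (19.7%) and lower for 18 (2.83%), where 17.4% and 22.3% of all features were (median 0.24 beside −0.01). In wild-type S288C 215 members (33.8%) rose after rescaling, where 32.9% of all features did. Treated RNA was not rRNA-depleted, per the labels' protocol, so the exonuclease and the missing depletion cannot be told apart in any treated over untreated ratio, while the interaction has that step in both arms.

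**Figure D4:**
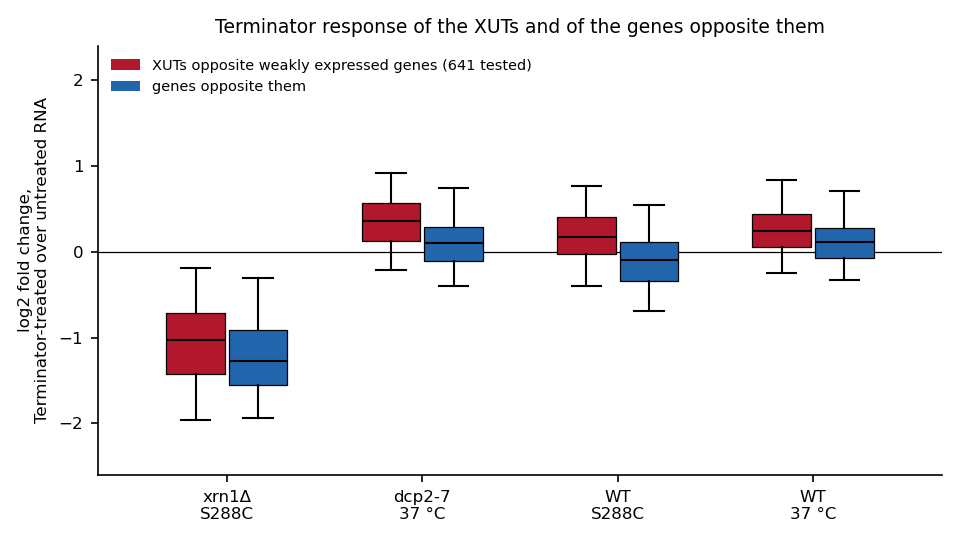
Log2 fold change of Terminator-treated over untreated RNA (y axis) in 4 cell groups (x axis), for the 641 XUTs tested and the genes opposite them; boxes span the quartiles with the median as a line, and whiskers the 5th to 95th percentile. On the snoRNA scale, the XUT median is −1.03 in xrn1Δ, 0.35 in dcp2-7, 0.17 in wild-type S288C and 0.24 in wild type at 37 °C.

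The 4 members with the largest losses in xrn1Δ among those that met the same criteria were XUT1797, XUT0611, XUT0780 and XUT0815. XUT1797, opposite MSS18, had 0.0555 and 0.0551 in treated xrn1Δ RNA, against 0.36 and 0.37 untreated (−2.55 ± 0.19), and 0.0916 and 0.0686 in treated dcp2-7 RNA, against 0.084 and 0.0655 untreated (0.09). XUT0611, opposite the vacuolar transporter gene VBA5, had 0.072 and 0.0774 in treated xrn1Δ RNA, against 0.437 and 0.467 untreated (−2.47). The interaction was 2.64 for XUT1797 and 2.28 for XUT0611. XUT0780, opposite PUL3, changed by −2.46 in xrn1Δ and −0.49 in dcp2-7, and XUT0815, opposite RSB1, by −2.43 and −0.22 in the same 2 mutants. The 2 members that rose with Terminator in xrn1Δ were XUT0334 (opposite YGL185C, 0.46) and XUT1083 (opposite the sterol regulator gene UPC2, 0.43).

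Several lists of genes whose use depends on meiosis, carbon source, nutrients or mating were looked up among the genes opposite. All 16 members opposite listed meiosis and sporulation genes rose in upf1Δ cells (median 1.75) and in W303 xrn1Δ cells, and 15 in dcp2-7. The shares among all 659 members were 85.0% (median 1.49), 94.2% and 75.6%, and among all features 54.3%, 91.3% and 72.4%. Whether the listed members differ from the members at large was not tested. XUT0418, opposite SPO11, which makes the meiotic double-strand breaks, had 0.12 and 0.105 in upf1Δ cells, against 0.00919 and 0.01 in wild type (2.94 ± 0.21, limma adjusted p = 2.7e-11). XUT1304, opposite the meiotic transcription factor gene NDT80, had 0.404 and 0.38 in upf1Δ cells, against 0.0611 and 0.0627 in wild type (2.55 ± 0.15). Neither XUT's upf1Δ libraries overlapped its wild-type libraries. NDT80 itself was not called (0.25, limma adjusted p = 0.31), and SPO11 had a change of 0.61 (limma adjusted p = 0.026) that was 0.32 and not called after rescaling. The XUT opposite RIM4, a meiotic RNA-binding protein gene, rose by 1.99, that opposite the meiotic kinase gene MEK1 by 1.79 and that opposite SPO13 by 1.94. Of the 15 meiosis genes with a member opposite, 12 rose in upf1Δ cells (median 0.88), beside 30 of the 40 on the whole list (1.09). Among all genes 47% rose (0.32).

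All 18 members opposite genes for sugar use and carbon source rose in upf1Δ cells (median 2.31) and in W303 xrn1Δ cells, and 16 in dcp2-7. The shares were 85.0% (median 1.49), 94.2% and 75.6% of all 659 members, and 54.3%, 91.3% and 72.4% of all features. This difference from the members at large was not tested either. Besides GAL2 and ADH2, the 18 members faced GAL1, the galactokinase gene (2.41), FBP1, the gluconeogenic fructose bisphosphatase gene (2.55), and ICL1, the isocitrate lyase gene of the glyoxylate cycle (2.49). The largest of the hexose transporter group was XUT0123, opposite HXT15 (3.14 ± 0.32), followed by those opposite HXT9 (2.82) and HXT11 (2.64). These 3 transporter genes have near-identical copies, so the place of their reads is uncertain. Of the 15 genes of the sugar and carbon source list with a member opposite, 8 rose in upf1Δ cells (median 0.51). On the whole list 17 of the 27 did, and 47% of all genes.

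Both members opposite nitrogen or phosphate genes rose in upf1Δ cells, as did 85.0% of all members and 54.3% of all features. XUT1352, opposite the allantoin permease gene DAL4, had 0.124 and 0.116 in upf1Δ cells, against 0.0102 and 0.0125 in wild type (2.88 ± 0.17, limma adjusted p = 1.5e-12), and XUT0502, opposite the allantoinase gene DAL1, rose by 1.93. XUT1352 had a change of 0.55 in dcp2-7, where rescaling turned it to −0.18. Of 3 members opposite mating genes, those opposite PRM2 (2.78) and the nuclear fusion gene KAR5 (2.75 ± 0.40) rose and the one opposite PRM7 was not called. That one, XUT0155, held only 2 and 4 reads in the upf1Δ libraries and 2 and 4 in their wild type. XUT1567, opposite KAR5, also had few reads, 54 and 55 in upf1Δ and 4 and 10 in wild type. KAR5 itself had 1100 and 1397 reads in upf1Δ, against 240 and 361 in wild type, before scaling. The XUT opposite the synapsis gene ZIP2 had 0.161 and 0.152 in upf1Δ cells, against 0.0248 and 0.0235 in wild type (2.44). The 1 member opposite a gene of the RNA decay list did not rise (−0.49).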

How the data were processed

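Strand-specific RNA-seq of 32 libraries and CAGE of 4 samples were deposited. The authors deposited 1 table of read density per annotated feature, a signal of reads per nt times 1 factor per library. Per the labels' protocols, RNA was rRNA-depleted or, alternatively, Terminator-treated, and sequenced in pairs; per the submitters' processing notes, Bowtie, TopHat and cutadapt were used, with versions not given in the sources used here. From the values, snoRNAs sum to the same total in every library and density times length gives whole reads in 100% of values (tolerance 0.01). The authors deposited CAGE position lists per genotype, used here as positions only, with no score.

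The response was log2(density + the 5th percentile of non-zero densities), and limma (version 3.58.1, under R version 4.3.3; trend, robust, two-sided) gave 1 mean per group, with 24 rRNA-depleted libraries (12 residual degrees of freedom) or the 16 libraries of the Terminator comparison (8), over features at or above that value in at least 2 libraries. Each group has 2 libraries, and the fit was tested on simulated data. Reading frames were searched in the RefSeq R64 genome with Python 3.11.15; of 5775 nuclear genes, 5738 had the same coordinates there. The members and lists were chosen with earlier results of these data known. Named members passed an adjusted p under 0.05 and a 2-fold change, had groups that did not overlap and a mean density above the members' median, and had the largest changes, with a fixed number per comparison; list members are those with the largest upf1Δ change, and members named as falls, differences or exceptions outside this rule were chosen after their values were seen. Alternatives were other pseudocounts and filters, mRNA scaling, voom on the recovered reads, smaller fits, a replicate block, other member sets and leaving out each library.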

Additional observations from a re-analysis of the deposited data

Results flagged for a closer look

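The response to Terminator differed between dcp2-7 and xrn1Δ for 588 of 641 members by limma's interaction test, against 87.6% of all features, and was the higher one in dcp2-7 each time. XUT1797 had the largest of the named differences, 2.64 on the log2 scale. XUT0611 differed by 2.28, XUT0815 by 2.22 and XUT0780 by 1.97. The 4 were named for their fall in xrn1Δ, which is 1 arm of the difference.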

How the results depend on the processing

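Rescaling to equal mRNA medians moved most. It gave 310 members higher in dcp2-7, 421 in xrn1Δ S288C, 334 in W303, 290 in haploid SK1 and 177 in diploid SK1, 126 lower after Terminator in xrn1Δ and 15 in dcp2-7, 125 with a Terminator difference, 59 less raised in upf1Δ than in xrn1Δ S288C, and 165 and 85 opposite genes lower in upf1Δ and W303. Medians reversed for diploid SK1 (−0.26), Terminator in xrn1Δ (0.013) and upf1Δ minus xrn1Δ (0.29), and so did the upf1Δ changes of the genes MSS18 (−0.14), R0010W (−0.019), UPS3 (−0.46), GAL2 (−0.21) and ADH2 (−0.35). In upf1Δ the median change over all genes was −0.28 on the rescaled values. The cause of these shifts was not tested.

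Other member sets are given as shares, since the number of members changes. Among the 396 with 500 nt or more of overlap, 91.9% rose in upf1Δ, and among the 359 with no other noncoding transcript on their strand 84.4% did. None of the genes opposite those 359 was called lower (0%) in upf1Δ or in W303 by limma. No other share left the range of 1.5 times.

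With a 10th of the pseudocount, 5 members were lower after Terminator in dcp2-7. Leaving out 1 library gave 0 to 5 there (0 without dcp2-7 replicate 1), 44 to 148 higher, 1 to 5 opposite genes lower in upf1Δ and 1 to 2 in W303; members higher in upf1Δ stayed between 533 and 548. Members that fell numbered 7 to 14 in dcp2-7 (7 without dcp2-7 replicate 2 and 8 without wild-type replicate 2, in place of 12), 1 to 5 in W303 (1 without wild-type replicate 2 and 5 without xrn1Δ replicate 1, in place of 3) and 4 to 10 in diploid SK1 (4 without xrn1Δ replicate 2, in place of 9). The rises after Terminator ranged between 48 and 82 in wild-type S288C and between 29 and 199 in wild type at 37 °C. XUT1420 was not called in upf1Δ without wild-type replicate 1 or upf1Δ replicate 2, nor by voom. The gene MSS18 lost its upf1Δ call without upf1Δ replicate 1 (0.33) and R0010W without wild-type replicate 2 (0.33). The deviations of same-numbered libraries from their group means had correlations between −0.15 and 0.25, so they share only a number. With a replicate block the Terminator difference was called for 588 members, and the block changed no other count by over 1.5 times; crossing the numbers of the wild-type S288C pairs gave 104 members higher with Terminator, as the block itself did. Voom on the recovered reads called 577 members higher in upf1Δ.

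Depth limits the weakest members: 577 of 659 had at least 10 reads in both wild-type libraries of the upf1Δ comparison, and 366 in both W303 wild-type libraries. With 2 libraries per group, the spread rests on the shared fit.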
